A study of Mus musculus with 10 samples.

Results

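Glyceroneogenesis and triglyceride synthesis were followed through 7 genes of mouse visceral white adipose tissue, chosen by symbol for their place in the route from oxaloacetate to triglyceride: Pck1, Gpd1, Gpam, Agpat2, Lpin1, Dgat1 and Dgat2. They are 7 of 47937 genes in the deposited count tables, were matched through versioned Ensembl identifiers with the version dropped, and all 7 passed the filter on low counts in every comparison. Bulk poly(A) RNA-seq was carried out on C57BL/6 mice that were wild type (Mof+/+, control) or heterozygous for Mof in the whole body (Mof+/-, het), the gene also called Kat8, which encodes a lysine acetyltransferase of histone H4. On standard diet (SD), tissue came from mice 8 weeks old, with 3 libraries per genotype. On high-fat diet (HFD), tissue came from mice labelled 27 weeks old after 20 weeks of feeding, with 2 libraries per genotype, although the study also describes a longer feeding period for its HFD mice. Diet and age therefore cannot be told apart. Whole tissue was lysed, so that fewer cells of a type and less RNA per cell cannot be told apart either. The p-values measure only the spread between these libraries.

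White adipocytes esterify fatty acids onto a glycerol backbone and, because they recycle little free glycerol, make much of that backbone by glyceroneogenesis. Phosphoenolpyruvate carboxykinase (Pck1) commits oxaloacetate to this route and glycerol-3-phosphate dehydrogenase (Gpd1) forms glycerol-3-phosphate. Acyltransferases (Gpam, then Agpat2) add the fatty acids, the phosphatidate phosphatase lipin-1 (Lpin1) yields diacylglycerol, and the diacylglycerol acyltransferases Dgat1 and Dgat2 complete the triglyceride. In adipose tissue Pck1 is known to respond to cAMP and to PPARgamma, and loss of AGPAT2 causes lipodystrophy.

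The libraries held 1044355 to 17171947 gene-assigned counts, and all 8 adipocyte markers (among them Adipoq, Plin1 and Cidec) were detected in each. HFD het replicate 1 stood apart. It was the shallowest library, mitochondrial genes took 26.9% of its counts against 1.79 to 8.82% elsewhere, and 16 skeletal muscle markers summed to 78106 CPM (counts per 1000000 gene-assigned counts), against 1894 in HFD het replicate 2 and at most 97.7 in the others. Kat8 was 20.4 to 21.5 CPM in the SD control libraries and 12.2, 18.8 and 11.5 CPM in the SD het libraries. These groups did not overlap in CPM. The scale of the test divides CPM by trimmed-mean (TMM) factors, which were 1.13, 1.12 and 1.16 for the SD controls and 0.907 for SD het replicate 2. On that scale the Kat8 groups overlapped. SD het replicate 2 lay above every SD control there, and SD het replicates 1 and 3 lay below. On HFD the control values of 18.1 and 19.2 CPM lay between the het values of 20.1 and 10.5 CPM. The value of 20.1 CPM, from HFD het replicate 1, rests on 21 counts, with an exact interval for counting error of 12.4 to 30.7 CPM. That interval covers both HFD controls and also SD het replicate 2 at 18.8 CPM. The value therefore cannot show whether the targeted gene was reduced in HFD het replicate 1. Xist was present only in the 3 SD het libraries (46.1 to 139 CPM) and all 4 Y-linked genes examined were at 0 in those 3 alone, although the methods name male mice, so that genotype on SD and sex cannot be told apart. The column headings inside the tables of SD control replicate 3 and SD het replicate 3 give the opposite genotype to their labels. The labels were used, and the sex-linked genes followed the labels in both.

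Pck1, Gpam and Lpin1 carried the calls described in the next paragraphs. The 250 bases before their RefSeq starts (GRCm38.p6) are shown so that the letters near their starts can be compared. The genes themselves lie at chr2:173153048-173159273 (Pck1), chr19:55067268-55127238 (Gpam) and chr12:16535669-16610966 (Lpin1) in GRCm38. Windows were listed for 4 of the 7 genes. Capitals mark matches to a fixed list searched on both strands: CRE (TGACGTNA), E-box (CACGTG), DR1 (AGGTCA repeated after 1 base), SRE (TCACNCCAC), CCAAT box (CCAAT) and GC box (GGGCGG).
Pck1, plus strand, chr2:173152823-173153072: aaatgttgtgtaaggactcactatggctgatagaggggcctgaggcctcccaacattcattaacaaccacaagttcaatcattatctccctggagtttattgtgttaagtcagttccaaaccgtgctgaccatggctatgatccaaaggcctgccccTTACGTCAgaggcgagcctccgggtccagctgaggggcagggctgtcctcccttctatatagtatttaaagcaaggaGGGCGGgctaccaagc
Gpam, minus strand, upstream start, chr19:55127239-55127488: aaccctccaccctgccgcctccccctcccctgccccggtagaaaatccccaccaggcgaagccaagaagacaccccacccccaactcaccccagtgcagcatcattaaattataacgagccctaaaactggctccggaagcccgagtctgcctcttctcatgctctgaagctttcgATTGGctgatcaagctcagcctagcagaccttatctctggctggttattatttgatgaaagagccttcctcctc
Gpam, minus strand, downstream start, chr19:55099478-55099727: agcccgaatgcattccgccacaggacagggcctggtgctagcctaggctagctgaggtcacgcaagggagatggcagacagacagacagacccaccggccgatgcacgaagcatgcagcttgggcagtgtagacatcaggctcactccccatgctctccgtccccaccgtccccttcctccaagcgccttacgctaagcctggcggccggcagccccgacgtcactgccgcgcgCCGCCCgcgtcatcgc
Lpin1, minus strand, chr12:16610967-16611216: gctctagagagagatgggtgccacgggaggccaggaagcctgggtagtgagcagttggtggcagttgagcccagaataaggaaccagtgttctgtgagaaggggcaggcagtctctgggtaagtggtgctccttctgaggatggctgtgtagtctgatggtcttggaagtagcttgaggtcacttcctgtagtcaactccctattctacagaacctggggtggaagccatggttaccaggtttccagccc
The Pck1 window held a CRE match 93 to 86 bases before the start, a motif found in 2.52% of 32851 windows of this length, and a GC box. The upstream Gpam window held a CCAAT box and the downstream one a GC box, motifs present in 33.8% and 32.7% of windows, and the Lpin1 window held no match to these 6 motifs. The matches are letters in a window and were not tested as binding sites.

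Scaled to transcript length (TPM over the union of exons), the SD controls ranked Dgat2 highest at 1784 ± 314 (SD, n = 3), followed by Gpd1 at 1009 ± 177 and Agpat2 at 768 ± 92.2. Pck1 followed at 428 ± 316, with Dgat1 at 215 ± 33.9, Gpam at 110 ± 55.1 and Lpin1 at 93.2 ± 16.3. The libraries of Gpd1 and Agpat2 overlapped on this scale, as did those of Gpam and Lpin1, and Pck1 overlapped both of its neighbours in the order. In the SD het libraries Pck1 ranked highest of the 7 at 1862 ± 1001, while Dgat2 again ranked highest in both HFD groups, at 2385 ± 480 in the controls and 1184 ± 1142 in the hets (n = 2 each). In HFD het replicate 1 itself Gpd1 (474) lay above Dgat2 (376), so that this order held for the means and not for every library. In CPM, Pck1 varied 32.9-fold from its lowest to its highest library and Gpam ranged from 0 to 363 CPM, whereas the other 5 genes varied 3.52-fold (Dgat1) to 6.28-fold (Agpat2).

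**Figure D1:**
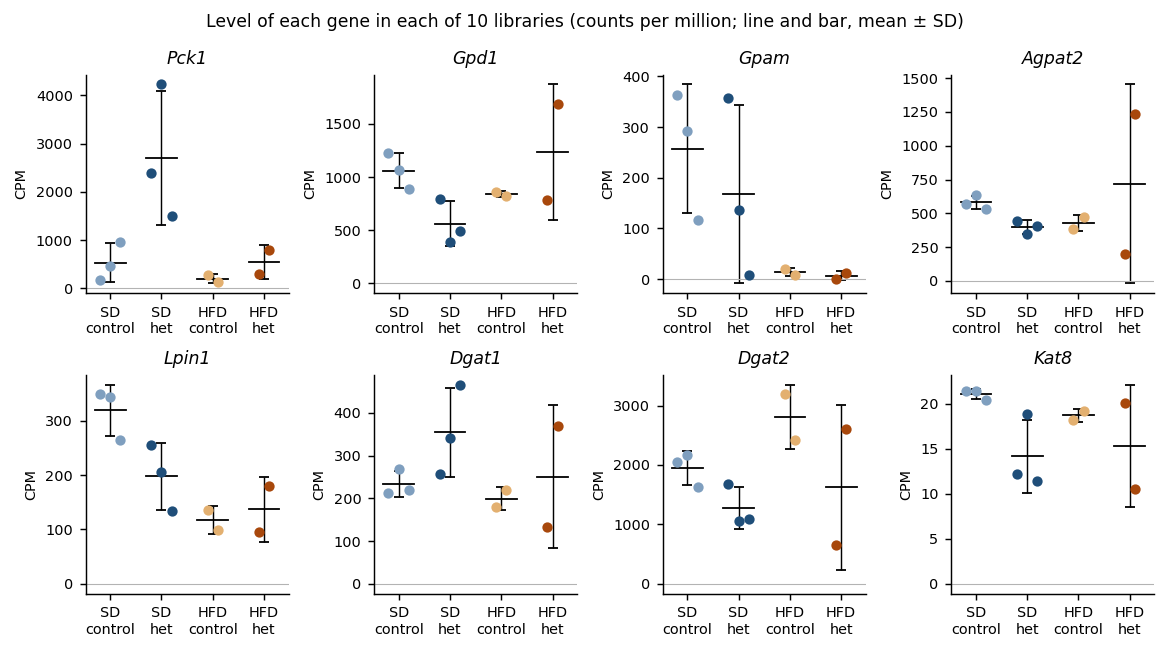
Level in CPM (vertical axes, linear) of the 7 triglyceride synthesis genes and of Kat8 in each of the 10 libraries, with 1 point per library and the group mean ± SD as a line and bar (n = 3 for the SD groups, n = 2 for the HFD groups). Pck1 lies at 1507 to 4226 CPM in the SD het libraries and at 162 to 963 in the SD controls, and Gpam lies at or below 19.1 CPM in all 4 HFD libraries.

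Genotype on standard diet was compared first, to ask how reduced Mof dosage relates to this route in young tissue. Pck1 rose in the hets and was the only one of the 7 genes called by edgeR's quasi-likelihood test. It was 162, 460 and 963 CPM in the controls and 2388, 4226 and 1507 CPM in the hets. In CPM every het library lay above every control, although the controls themselves were widely spread. The log2 fold change was 2.71 ± 0.62 (SE), or 6.54-fold, with an edgeR adjusted p of 0.0459. Over all genes tested 5.24% were called (727 of 13864), against this 1 of 7, and the median log2 change of the 7 genes was -0.26 beside -0.07 over all genes.

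The Pck1 call stood close to the threshold. Its adjusted p was 0.0599 with all 10 libraries in the fit, 0.0527 with a correction for transcript length, and 0.0677 when libraries were scaled to adipocyte markers, and the call was also lost without any single SD control or without SD het replicate 1 or 2 (log2 fold change 2.27 to 3.45). With the genotypes of the column headings the log2 fold change was 1.76 at an edgeR adjusted p of 1, and 0% of genes were called. Liver makes much Pck1, and 5 liver markers summed to 63.6, 419 and 54.3 CPM in the het libraries against 7.10 to 19.2 in the controls, with the highest sum in the library with the highest Pck1. Without that library the log2 fold change of Pck1 was 2.27. The kidney tubule markers, of another tissue rich in Pck1, were at most 3.61 CPM in any library. The part of liver RNA in the Pck1 values was not tested.

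Dgat1, which encodes the acyltransferase of the endoplasmic reticulum that re-esterifies fatty acids, was 214, 267 and 219 CPM in the SD controls and 258, 340 and 466 CPM in the hets. In CPM the lowest het lay below the highest control. On the scale of the test, which divides CPM by trimmed-mean (TMM) factors, the groups did not overlap, and the log2 difference was 0.98 ± 0.30 with an edgeR adjusted p of 0.0863, which missed the threshold. DESeq2 called it, at an adjusted p of 0.0234. With adipocyte-marker scaling the log2 difference was -0.09. On the TMM scale Pck1 and Dgat1 were the 2 of 7 genes whose groups did not overlap, where 35.6% of all tested genes did not.

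The other 5 genes had negative log2 differences that were not called, and 2 of these turned positive under an alternative: Lpin1 with the length correction (0.12), and Gpam with the column headings (0.11) and without SD control replicate 1 (0.026) or SD het replicate 3 (0.26). Gpd1 was 1223, 1068 and 891 CPM in the SD controls and 797, 389 and 497 CPM in the hets, and its log2 difference was -0.57 ± 0.31 (edgeR adjusted p = 0.287). Every het value was below every control in CPM, and the groups overlapped on the TMM scale. Agpat2, which adds the acyl chain that turns lysophosphatidate into phosphatidate, was 573, 635 and 536 CPM in the controls and 443, 345 and 408 CPM in the hets, with a log2 difference of -0.18 ± 0.23 (edgeR adjusted p = 0.670). Agpat2 shares 64 exon bases with Egfl7 on the opposite strand, and the library kit does not mark strand.

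Dgat2, the acyltransferase that mainly uses newly made fatty acids, was 2050, 2169 and 1631 CPM in the SD controls and 1675, 1061 and 1089 CPM in the hets. Its lowest control lay just under its highest het, and the log2 difference was -0.26 ± 0.27 (edgeR adjusted p = 0.589). Lpin1 was 349, 344 and 265 CPM in the controls and 256, 205 and 133 CPM in the hets, lower in every het in CPM and overlapping on the TMM scale, with a log2 difference of -0.35 ± 0.27 (edgeR adjusted p = 0.461).

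Gpam encodes the mitochondrial glycerol-3-phosphate acyltransferase. It was 363, 293 and 118 CPM in the SD controls and 358, 137 and 9.07 CPM in the hets, where the 61 counts of SD het replicate 3 give a 95% exact (Clopper-Pearson) interval of 6.94 to 11.7 CPM. The het libraries thus spread over nearly the whole range of the gene, and the log2 difference was -0.31 ± 0.92 (edgeR adjusted p = 0.858). Spearman's rho between transcript length and a gene's deviation from its mean over libraries (14817 genes), higher where long transcripts take more of the counts, was 0.33 to 0.39 in the 3 SD controls and 0.13, -0.18 and -0.38 in the hets in the same order as their Gpam values, and its part in the Gpam values was not tested. Gpam (6664 exon bases) and Lpin1 (9665) are the longest of the 7 genes.

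Markers of several cell types differed between the SD groups as well. The 8 adipocyte markers summed to 18491 to 24035 CPM in the controls and 34319 to 53500 in the hets, 5 endothelial markers to 798 to 1891 and 153 to 237 CPM, and 5 mesothelial markers to 22.5 to 59.1 and 151 to 319 CPM. When libraries were scaled to the adipocyte markers, the median log2 change over all genes moved to -1.13 and 35.9% of genes were called. In that setting 4 of the 7 genes were called lower: Gpd1 (-1.59), Lpin1 (-1.37), Dgat2 (-1.28) and Agpat2 (-1.22), values close to the shift of the median gene. Pck1 was 1.61 on the same log2 scale. Relative to the geometric mean of the adipocyte markers its groups overlapped, at 0.529 in SD het replicate 3 and 0.603 in SD control replicate 3. The part of cell composition in the TMM-scaled values was not tested.

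**Figure D2:**
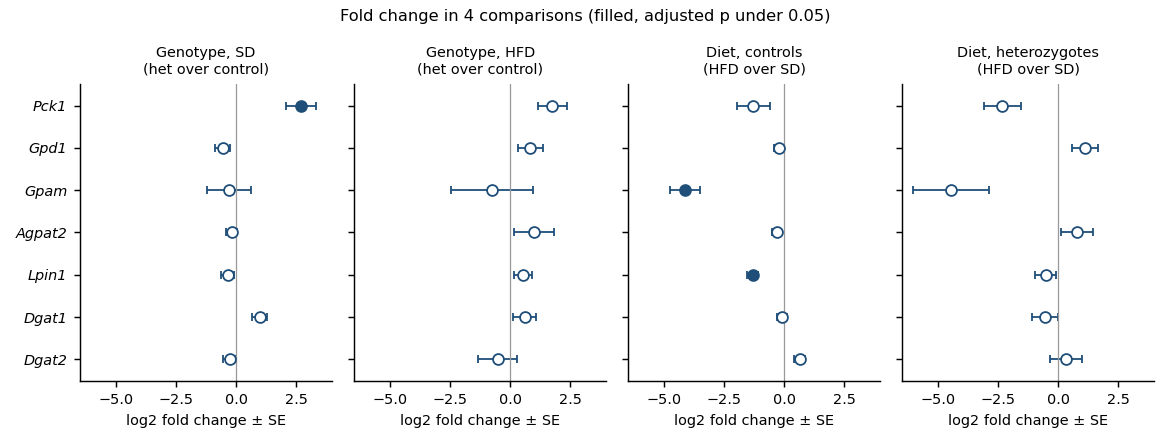
The log2 fold change (horizontal axes, ± SE, edgeR) of the 7 genes in the 4 pairwise comparisons, with filled points for an adjusted p under 0.05. Filled are Pck1 for genotype on SD (2.71) and Gpam (-4.12) and Lpin1 (-1.32) for diet in the controls, and no point is filled in the HFD genotype comparison or for diet in the hets.

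Genotype on high-fat diet gave no call among the 7 genes, where 0% of the 14120 genes tested were called by edgeR (1732 at an unadjusted p under 0.05, and 198 by DESeq2, none of them among the 7). Pck1 was 266 and 128 CPM in the controls and 294 and 800 CPM in the hets, again higher in both hets, and the log2 difference was 1.75 ± 0.60 (edgeR adjusted p = 0.341). Gpd1 was 861 and 819 CPM in the controls and 780 and 1684 CPM in the hets, which lay on either side of the controls. On the TMM scale Pck1 and Gpd1 were the 2 of 7 genes without overlap, and 50.1% of all tested genes had none.

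The HFD het libraries were far apart for the acylation steps. Agpat2 was 197 and 1238 CPM in the hets and 386 and 470 CPM in the controls. Dgat2 was 644 and 2610 CPM in the hets and 3191 and 2426 CPM in the controls. Dgat1, at 132 and 369 CPM in the hets, also enclosed its control values of 180 and 218 CPM. For all 3 genes the lower het value came from replicate 1, the library with high muscle and mitochondrial counts. Lpin1 was 94.8 and 180 CPM in the hets and 136 and 99.4 CPM in the controls. Gpam was low throughout, at 0 and 13.0 CPM in the hets and 19.1 and 8.24 CPM in the controls. For the 0 counts of HFD het replicate 1 a limit of 3 counts is 2.87 CPM at its depth, and the 95% exact upper limit is 3.53 CPM.

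Without HFD het replicate 1, a comparison in which the lone het library is assumed to vary like the controls, 5 of the 7 genes were called higher in the het: Pck1 (log2 fold change 2.19), Agpat2 (1.70), Gpd1 (1.17), Dgat1 (1.06) and Lpin1 (0.78). Of all genes 27.2% were then called, with 1 degree of freedom for the spread. In the remaining het library the adipocyte markers summed to 40938 CPM against 22052 and 20091 in the controls, the macrophage markers to 1881 against 3807 and 4871, and 4 brown adipocyte markers to 66.2 against 8.65 and 7.12. Its skeletal muscle markers summed to 1894 CPM against 49.7 and 49.6, mitochondrial genes took 1.79% of its counts against 4.23 and 3.13%, and the rho with transcript length was -0.20 against 0.09 and -0.01. The part of these in the 5 calls was not tested. Without HFD het replicate 2, 3 of the 7 were called, Pck1 (log2 fold change 0.97) higher and Dgat2 (-1.73) and Gpam, at 0 counts in the remaining het, lower, a share near the 47.9% of all genes called in that setting (7551 of 15761).

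Diet in the control mice was compared to ask how high-fat feeding, with the older age that came with it, relates to the route in wild-type tissue. Gpam and Lpin1 fell, so that 2 of the 7 genes were called where 9.75% of all genes were (1457 of 14939). Gpam was 363, 293 and 118 CPM on SD and 19.1 and 8.24 CPM on HFD, every HFD library lying well below every SD library. Its log2 fold change was -4.12 ± 0.62 (edgeR adjusted p = 0.0128). Lpin1 was 349, 344 and 265 CPM on SD and 136 and 99.4 CPM on HFD, also without overlap, with a log2 fold change of -1.32 ± 0.23 (edgeR adjusted p = 0.0211). The median log2 change of the 7 genes was -0.32 beside -0.04 over all genes.

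Both calls were lost with all 10 libraries in the fit (edgeR adjusted p = 0.226 for Gpam and 0.156 for Lpin1), with the column headings, without SD control replicate 1 and without HFD control replicate 2. Without HFD control replicate 1 the Lpin1 call was lost too. The fold changes stayed at -3.63 to -4.82 for Gpam and -1.10 to -1.53 for Lpin1 when single libraries were left out. The same rho with transcript length was 0.33 to 0.39 in the SD controls and 0.09 and -0.01 in the HFD controls, and with a correction for transcript length the log2 fold changes were -3.97 and -1.04, both still called. The 6 macrophage markers summed to 758 to 1408 CPM in the SD controls and to 3807 and 4871 CPM in the HFD controls, the 5 endothelial markers to 798 to 1891 CPM and to 401 and 319 CPM, while the adipocyte markers stayed within 18491 to 24035 CPM. Mitochondrial genes took 8.82, 6.26 and 7.26% of counts in the SD controls and 4.23 and 3.13% in the HFD controls. The part of the macrophage and endothelial markers and of the mitochondrial share in the values of Gpam and Lpin1 was not tested. Scaled to adipocyte markers, Gpam was called (log2 fold change -3.97) and Lpin1 missed the threshold at an edgeR adjusted p of 0.0518.

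Dgat2 was the gene of the 7 with higher values on HFD in the controls, at 3191 and 2426 CPM against 2050, 2169 and 1631 CPM on SD. Both HFD libraries lay above all SD libraries, and the log2 difference of 0.65 ± 0.23 was not called by edgeR (adjusted p = 0.120) but was by DESeq2 (adjusted p = 0.0220). Agpat2 was lower in both HFD controls, at 386 and 470 CPM, with a log2 difference of -0.32 ± 0.20 (edgeR adjusted p = 0.343). On the TMM scale Gpam, Lpin1, Agpat2 and Dgat2 were the 4 of 7 genes without overlap, beside 49.2% of all tested genes. Dgat1 and Pck1 overlapped between diets, and Gpd1 was lower in both HFD controls in CPM but overlapped on the TMM scale. The log2 differences of Gpd1, Dgat1 and Pck1 were -0.21 ± 0.21, -0.10 ± 0.20 and -1.29 ± 0.69, and Pck1 in the HFD controls (266 and 128 CPM) spanned the lowest SD control.

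**Figure D3:**
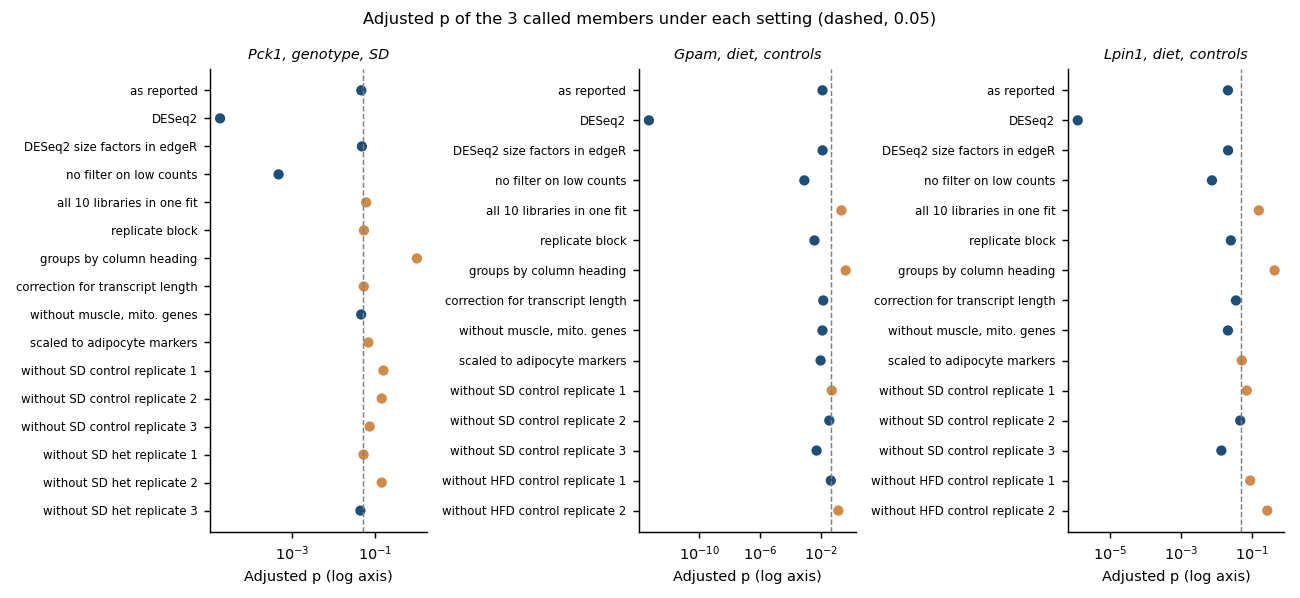
Adjusted p (horizontal axes, log scale) of Pck1 for genotype on SD and of Gpam and Lpin1 for diet in the controls, under the reported fit and each alternative setting or left-out library, with the dashed line at 0.05. DESeq2 gives the lowest value for each gene, and grouping by column headings the highest, at 1 for Pck1 and 0.433 for Gpam and Lpin1.

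Diet in the hets gave no call among the 7 genes by edgeR, and 0% of 13610 genes were called (1166 at an unadjusted p under 0.05, and 476 by DESeq2, which included Pck1 and Gpam). In this comparison the female pattern of the SD hets and the male pattern of the HFD hets also separate the groups. Pck1 was 2388, 4226 and 1507 CPM on SD and 294 and 800 CPM on HFD, without overlap, with a log2 difference of -2.33 ± 0.76 (edgeR adjusted p = 0.473). The 5 liver markers summed to 63.6, 419 and 54.3 CPM on SD and to 0 and 1.99 CPM on HFD, and their part in the Pck1 values was not tested. Gpam was 358, 137 and 9.07 CPM on SD and 0 and 13.0 CPM on HFD, so that SD het replicate 3 lay inside the HFD range, and the log2 difference was -4.47 ± 1.58 (edgeR adjusted p = 0.492). It was -3.35 to -5.03 with other single libraries left out, and without HFD het replicate 2 the remaining HFD library had 0 counts of Gpam. In that setting Pck1 was called lower (log2 fold change -3.08), where 13.8% of all genes were called (2122 of 15382). The skeletal muscle markers, at most 97.7 CPM in the SD hets, summed to 78106 and 1894 CPM in the HFD hets, and their part in these values was not tested. Gpd1 was 797, 389 and 497 CPM on SD and 780 and 1684 CPM on HFD, with a log2 difference of 1.11 ± 0.54 (edgeR adjusted p = 0.627). Pck1 and Gpd1 were the 2 of 7 genes whose groups did not overlap on the TMM scale, beside 29.4% of all genes. Agpat2, Lpin1, Dgat1 and Dgat2 overlapped between diets in the hets, with log2 differences of 0.77, -0.53, -0.56 and 0.30.

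The interaction of genotype and diet, tested over all 10 libraries, was called for none of the 7 genes by edgeR, where 0.0881% of all genes were called (14 of 15897, and 1968 at an unadjusted p under 0.05). DESeq2 called none of the 7 either. The female pattern was confined to the SD hets and age came with diet, so that sex and age cannot be told apart from this interaction. The largest value among them belonged to Gpd1, for which the genotype difference on HFD exceeded that on SD by 1.31 ± 0.56 on the log2 scale (edgeR adjusted p = 0.374). For Pck1 the interaction was -1.06 ± 0.96 (edgeR adjusted p = 0.690). The data thus do not show that the genotype difference in Pck1 differed between diets.

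The balance of the DGAT enzymes, taken within a library as the log2 ratio of Dgat1 to Dgat2 counts and so independent of library scaling, was -3.26, -3.02 and -2.90 in the SD controls and -2.70, -1.64 and -1.23 in the SD hets. Every het ratio was higher. In counts, Dgat2 exceeded Dgat1 7.44 to 9.60-fold in the controls and 2.34 to 6.49-fold in the hets. The group difference was 1.20, with an exact two-sided permutation p of 0.1, the smallest that 3 against 3 allows. On HFD the ratio was -4.15 and -3.47 in the controls and -2.28 and -2.82 in the hets, again higher in both hets, by 1.26 (exact permutation p = 0.333, the smallest that 2 against 2 allows). The value of -2.28 came from HFD het replicate 1, with 138 Dgat1 and 673 Dgat2 counts and 78106 CPM of skeletal muscle markers. The ratio does not remove differences in cell composition, whose part was not tested, and on SD genotype and sex cannot be told apart. Diet differed by -0.75 in the controls (exact permutation p = 0.200, the smallest possible) and by -0.70 in the hets (exact permutation p = 0.400), and over these 4 comparisons the Benjamini-Hochberg value was 0.400 for each. With the column headings the difference on SD was 0.09.

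Each gene was next set beside the other members of its enzyme family by level per length, a view added after the data had been seen. Gpam took 25.3 to 47.1% of the glycerol-3-phosphate acyltransferase family in the SD controls, 1.29 to 39.1% in the SD hets, 3.99 to 8.71% in the HFD controls and 0 to 3.02% in the HFD hets. Gpat3, an isoform of the endoplasmic reticulum, took 27.4 to 37.5% in the SD controls and 45.5 to 77.6% in the SD hets. Gpat4, also of the endoplasmic reticulum, took 25.6 to 37.3% in the SD controls, 15.4 to 21.1% in the SD hets and 46.2 to 61.2% in the 4 HFD libraries. Gpam therefore took a larger share in every SD control than in any HFD library. In SD control replicate 3 it lay below Gpat3 (37.5%) and Gpat4 (37.3%). The shares of HFD het replicate 1 rest on 60 counts of the whole family. The rho with transcript length was 0.33 to 0.39 in the SD controls and -0.20 to 0.09 in the HFD libraries, and its part in these shares was not tested.

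**Figure D4:**
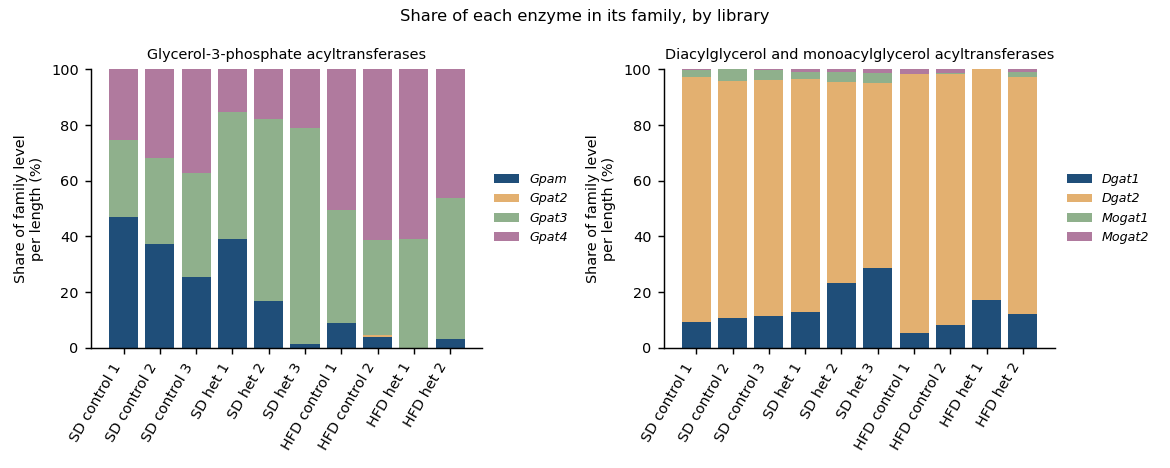
Share of each enzyme (vertical axes, percent of the family's summed level per length) in the glycerol-3-phosphate acyltransferase family (left) and among the diacylglycerol and monoacylglycerol acyltransferases (right), with 1 bar per library. The Gpam segment is 25.3 to 47.1% in the SD controls and at most 8.71% on HFD, and the Dgat1 segment is 9.24 to 11.5% in the SD controls and 13.0 to 28.6% in the SD hets.

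The other families kept their leading member in every library. Pck1 took 89.0 to 99.6% of Pck1 and the mitochondrial Pck2 together, and Gpd1 took 89.9 to 99.1% of Gpd1 and Gpd1l. Agpat2 took 63.8 to 89.6% of the acylglycerolphosphate acyltransferases. Lpin1 took 87.5 to 91.6% of the lipins on SD and 70.7 to 82.3% on HFD, with no overlap between diets, and Dgat2 took 66.4 to 92.9% of the diacylglycerol and monoacylglycerol acyltransferases.

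Among 41 further genes of the pathway, 39 were tested in each comparison, and Gpat2 and Fitm1 were not. For genotype on SD, 2 rose and 1 fell, where 5.24% of all genes were called. Acsl1, which activates long-chain fatty acids to their CoA esters, rose with a log2 fold change of 1.91 (edgeR adjusted p = 0.029), from 481, 598 and 563 CPM to 1919, 2076 and 898 CPM. Gpat3 rose from 111, 126 and 91.6 CPM to 219, 280 and 287 CPM, with a log2 fold change of 1.62 (edgeR adjusted p = 0.026), so that it rose while the Gpam groups overlapped. Dgkz, a diacylglycerol kinase that returns diacylglycerol to phosphatidate, fell from 122, 67.1 and 153 CPM to 28.2, 21.6 and 27.1 CPM, a log2 fold change of -1.78 (edgeR adjusted p = 0.032). Groups did not overlap for these 3 genes, and all 3 calls were lost without any single SD control, without SD het replicate 2, with all 10 libraries in the fit and with the column headings. With adipocyte-marker scaling, which moved the median of all genes to -1.13, 0 of the 39 were called higher and 24 lower, where 35.9% of all genes were called. The median log2 change over the 39 was -0.11.

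For diet in the controls, 4 of the 39 rose and 7 fell, with a median log2 change of -0.29, where 9.75% of all genes were called. Gpd2, the mitochondrial dehydrogenase that consumes glycerol-3-phosphate, fell from 78.0, 97.0 and 90.7 CPM to 10.9 and 12.9 CPM, with a log2 fold change of -2.77 (edgeR adjusted p = 0.003). Of the monoacylglycerol acyltransferases, which feed diacylglycerol to Dgat1 and Dgat2, Mogat1 fell from 29.6, 52.9 and 32.8 CPM to 5.49 and 7.49 CPM (-2.44, edgeR adjusted p = 0.015), and Mogat2 rose from 4.34, 0.822 and 3.23 CPM to 30.9 and 19.1 CPM (3.28, edgeR adjusted p = 0.027). Pcx, pyruvate carboxylase, which supplies the oxaloacetate used by Pck1, fell from 1270, 1778 and 1117 CPM to 470 and 376 CPM (-1.59, edgeR adjusted p = 0.020). The glycolytic isomerase Tpi1 rose (1.20, edgeR adjusted p = 0.024), as did the acyl-CoA synthetase Acsl5 (0.75, edgeR adjusted p = 0.043). By step, those called were 4 of 9 genes of glycerol-3-phosphate supply, 1 of 5 of fatty acid activation, 1 of 2 further glycerol-3-phosphate acyltransferases, 1 of 5 further acylglycerolphosphate acyltransferases, 1 of 5 lipins and lipid phosphatases, 2 of 2 monoacylglycerol acyltransferases, 1 of 8 of the side branches and 0 of 3 of packaging and transfer. When single libraries were left out, 0 to 5 pathway genes were called higher and 1 to 7 lower, with 0.384 to 14.9% of all genes called. With adipocyte-marker scaling 2 were called higher and 3 lower (4.22% of all genes), with all 10 libraries in the fit 0 and 1 (0.893%), and with the column headings none (0%). No gene of the 39 was called by edgeR as reported for genotype on HFD, for diet in the hets or for the interaction, but alternatives gave calls. For genotype on HFD a block for replicate number called 2 higher (1.42% of all genes). The length correction (0.688%) and adipocyte-marker scaling (7.95%) called 1 higher each. For diet in the hets the block (1.8%) and the fit of all 10 libraries (1.19%) called 1 lower each. With no filter on low counts 2 were called higher and 1 lower for diet in the hets (2.1%), and 2 higher and 0 lower for the interaction (1.62%). Leaving out either HFD het library, which leaves a single het library on HFD, also gave calls among the pathway genes for genotype on HFD.

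The pattern of each of the 7 genes over the 10 libraries was compared with 9723 genes of at least 10 CPM on average, by the root-mean-square difference of Z-scores of log2 TMM-scaled CPM, where 0 is the same pattern. This is a description over libraries that share group, depth and composition. Dgat1 had the closest neighbour, Tspo (0.137), a protein of the outer mitochondrial membrane, followed by Fcgrt (0.247) and Trf (0.270). Gpam was closest to Slit3 (0.173), Pcm1 (0.213) and Gphn (0.217), and Lpin1 to Pdzd2 (0.258), Slc25a16 (0.275) and Atp2b4 (0.294). Pck1 was closest to Hacl1 (0.342), Klhl21 (0.366) and the clock repressor Nr1d1 (0.383). Agpat2 was closest to Ltbp3 (0.315), Lpcat3 (0.320) and Atg16l1 (0.347), and Dgat2 to Lrrc59 (0.335), Sh3pxd2b (0.340) and Stim2 (0.378). Gpd1 had the most distant neighbours, Trabd2b (0.491), Rab40c (0.514) and Rbm14 (0.517). Among the 7 genes themselves the closest pair was Gpam and Lpin1 (0.56) and the most distant Pck1 and Gpd1 (1.61), the genes of the opening steps of the route. Gpam and Lpin1 are also the longest of the 7 (6664 and 9665 exon bases), and the part of transcript length in their patterns was not tested.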

How the data were processed

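Poly(A) libraries (TruSeq RNA v2, unstranded) of 10 samples were sequenced as paired reads. The authors deposited 1 table of gene counts per sample, whole numbers that were not normalized. The submitters' processing notes name STAR, featureCounts (Subread 1.5.0-p1) and DESeq2 1.26, and gene positions here are those of GRCm38. Counts were tested with edgeR 4.0.16 (TMM, filterByExpr, quasi-likelihood test, Benjamini-Hochberg over all genes tested, threshold 0.05), on the libraries of each comparison and on all 10 for the interaction. The method was tested on simulated data. DESeq2 1.42.0 was an alternative. Library totals ran from 1044355 to 17171947, so that 1 count was 0.0582 to 0.958 CPM. Clopper-Pearson intervals (95%) and the limit of 3 counts for a count of 0 cover counting error only. Symbols matched 47224 of 47937 identifiers. The 7 genes, and the pathway and marker lists, were chosen with earlier results of these data known. All 7 genes are named everywhere. Other pathway genes are named where called, at most 3 higher and 3 lower per comparison by smallest adjusted p, and the 3 nearest patterns per gene are those of smallest difference. Alternatives were another tool, normalization, filter or grouping, corrections and left-out libraries.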

Additional observations from a re-analysis of the deposited data

How the results depend on the processing

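Counts of calls depended on the setting. For genotype on SD, the 1 gene called of 7 became 2 with DESeq2 and with no filter on low counts, 4 with adipocyte-marker scaling, and 0 with all 10 libraries in one fit, column headings or the transcript length correction, and 0 to 1 without single libraries. For diet in the controls, the 2 genes became 3 with DESeq2 (Dgat2 added, higher), 1 with adipocyte-marker scaling, 0 with all 10 libraries or column headings, and 0 to 2 without single libraries. For diet in the hets, 0 became 2 with DESeq2 and 1 with no filter, and 0 to 1 without single libraries, and for genotype on HFD 0 to 5 were called without single libraries. Replicate numbers did not pair the libraries (same-number correlations -0.04 to 0.03), and with a replicate block the calls were 0 for genotype on SD (Pck1 adjusted p = 0.0531) and 1 for diet in the hets, and unchanged in number elsewhere.

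Over all genes, the 727 calls for genotype on SD became 2204 with DESeq2, 1840 with no filter, 194 with all 10 libraries, 428 with the block, 380 with the length correction, 4972 with adipocyte-marker scaling (2.07% of them higher, against 462 of 727), 0 with column headings and 17 to 1026 without single libraries. The 1457 for diet in the controls became 2988 with DESeq2, 142 with all 10 libraries, 0 with column headings, 631 with adipocyte-marker scaling (73.9% higher, against 900 of 1457) and 64 to 2230 without single libraries. For genotype on HFD, 0 became 198 with DESeq2, 200 with the block, 97 with the length correction, 1122 with adipocyte-marker scaling and at most 7551 without single libraries. For diet in the hets, 0 became 476 with DESeq2, 429 with no filter, 189 with all 10 libraries, 245 with the block, 90 with the length correction, 129 with adipocyte-marker scaling and at most 2122 without single libraries, and the 14 of the interaction became 505 with DESeq2, 380 with no filter and 4 to 3164 without single libraries. The length correction moved the median log2 change over all genes to 0.79 for genotype on HFD, 0.56 for diet in the hets and 0.49 for the interaction.

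Signs turned for differences that had not been called. With column headings these were genotype on SD for Gpam (0.11) and Dgat1 (-0.23) and the interaction for Dgat1 (0.75). With the length correction they were genotype on SD for Lpin1 (0.12), genotype on HFD for Dgat2 (0.27), diet in the hets for Lpin1 (0.37) and Dgat1 (0.17), and the interaction for Gpam (0.10), Dgat1 (0.51) and Dgat2 (0.48). With adipocyte-marker scaling they were Dgat1 for genotype on SD (-0.089) and diet in the controls (0.12), Lpin1 (0.49) and Dgat1 (0.36) for diet in the hets, and Dgat1 (0.23) and Dgat2 (0.18) for the interaction. The replicate block turned the Gpam interaction (0.45). Without single libraries the ranges that crossed 0 were -1.49 to 0.26 for Gpam on SD, -10.20 to 0.10 for Gpam, -0.72 to 1.70 for Agpat2, -0.20 to 1.06 for Dgat1 and -1.73 to 0.062 for Dgat2 on HFD, -0.24 to 0.057 for Dgat1 for diet in the controls, -0.92 to 1.51 for Agpat2 and -0.88 to 0.92 for Dgat2 for diet in the hets, and -9.75 to 0.95 for Gpam, -0.61 to 1.88 for Agpat2, -1.24 to 0.077 for Dgat1 and -1.54 to 0.32 for Dgat2 for the interaction. For the Dgat1 to Dgat2 ratio, column headings gave 0.091 for genotype on SD, -1.31 for diet in the controls and -0.14 for diet in the hets, and left-out libraries -1.09 to -0.41 for diet in the controls and -1.12 to -0.38 for diet in the hets. The cause of these shifts was not tested. With 2 libraries per HFD group, and 1 count worth 0.958 CPM in HFD het replicate 1, values of low genes in that library are coarse, and the spread between the 2 hets limits the genotype comparison on HFD.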
